A study of Mus musculus with 6 samples.

Results

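Clastokines are factors that osteoclasts make or release and that act on bone-forming cells. 10 genes of this kind were followed: Sphk1, Sphk2, Spns2, Lif, Tgfb1, Pdgfb, Sema4d, Efnb2, Cthrc1 and Slit3. They were chosen by name, with no threshold on a measured value, but with earlier results of these data known. By symbol, all 10 were found among the 22601 genes of the count table. All 10 also passed the filter on low counts, which left 13483 genes for testing. RNAseq read counts were available for 6 mouse libraries, 3 WT and 3 Slc37a2 KO. The Slc37a2 KO mice carry a gene-trap allele (tm2a) made with cells of the Knockout Mouse Project, both genotypes were kept on the C57BL/6N background, and the allele is carried by the whole animal and not by osteoclasts alone. The sample labels describe osteoclasts grown from bone marrow macrophages (BMMs) over 5 days with 10 ng/ml RANKL, the cytokine that drives osteoclast formation, and 2 ng/ml M-CSF, the growth factor of macrophages. The RNAseq methods of the paper instead describe RNA of whole femurs and tibias from male and female mice. Column headings give an animal number, the letter F, which was not used here to assign a sex, and 11 weeks of age. The libraries are called WT K090, WT L080 and WT L082 and KO K089, KO L078 and KO L081. The 6 animal numbers differ, and p-values measure the spread among these 6 libraries.

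In bone remodelling, resorption by osteoclasts is followed by formation at the same place, and this link is called coupling. Osteoclasts can stimulate osteoblasts through secreted lipids such as sphingosine 1-phosphate (S1P), through TGF-beta that is stored in matrix and activated by resorption, through growth factors, and through membrane proteins that touch the neighbouring cell. Semaphorin 4D differs from most of them, because it holds osteoblasts back. RNA counts show transcript levels only, and neither release nor activation of these factors was measured here.

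The libraries held 27552183 to 42522292 counts. Slc37a2 itself checked the labels: it was at 1931, 2210 and 2421 CPM (counts scaled to the library total) in WT K090, L080 and L082, and at 42.1, 34.0 and 35.2 CPM in KO K089, L078 and L081. The log2 fold change (Slc37a2 KO over WT) was -5.82 with a 95% confidence interval of -6.30 to -5.34 (adjusted p = 7.07e-04, quasi-likelihood test of edgeR, adjusted by Benjamini-Hochberg). KO L078 stood nearer to WT libraries than to its own genotype over the whole table: its counts differed by a chi-square per degree of freedom of 19.3 from WT L080 and 25.5 from WT K090, against 113 from KO K089 and 89.7 from KO L081. WT L082 in turn stood nearer to KO K089 (30.4) and KO L081 (27.4) than to WT K090 (71.4) and WT L080 (33.9). The Slc37a2 levels of KO L078 and WT L082 match their labels. Results are given with and without KO L078, and part of them also without WT L082. All 15 osteoclast marker genes listed were detected. Their summed level was 43537 to 61862 CPM in WT and 48137 to 75728 CPM in Slc37a2 KO, led by the matrix-degrading enzymes Mmp9 and Ctsk and the acid phosphatase Acp5. Macrophage markers (12 of 12 detected) summed to 5419 to 9289 CPM in WT and 5410 to 8806 CPM in Slc37a2 KO. Osteoblast and stromal markers (16 of 16 in the table) summed to 1034 to 1920 CPM in WT and 745 to 2313 CPM in Slc37a2 KO, with the osteoblast gene Bglap and the stromal gene Lum under 10 counts over all libraries. Endothelial markers (7 of 9 in the table) summed to 35.5 to 91.3 CPM over all 6 libraries, with Tek and Cldn5 not in the table used here. Most of this sum was Vwf, at 28.8 CPM in KO L078 to 87.4 CPM in KO K089. Kdr was at 2.7 to 5.17 CPM, and each other endothelial marker was under 1 CPM in every library. Platelet markers (4 of 6) summed to at most 8.98 CPM, and markers of T and B cells (3 of 8) to at most 0.282 CPM.

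None of the 10 genes passed the test between genotypes. Their adjusted p-values ran from 0.969 to 0.993 (quasi-likelihood test of edgeR, adjusted by Benjamini-Hochberg for all 13483 genes). Across all tested genes 1 passed, Slc37a2, which is 0.00742% of them, and the count was the same with the added requirement of an absolute log2 fold change over 1.5 (0.00742%). The log2 fold change was above 0 for 8 of the 10 and below 0 for 2, with a median of 0.16 and a range of -0.35 to 0.49. Leaving out WT L082 gave 10 above 0 and a median of 0.27, leaving out WT K090 gave 6 above 0, and the lowest median was 0.12, without KO K089. Over all tested genes 43.8% were above 0 and the median was -0.02. For 7 of the 10 genes the whole 95% confidence interval lay between -1 and 1, a change of less than 2-fold either way, against 78.4% of all genes tested. The intervals of Sphk1, Lif and Slit3 reached past these limits, so a change of 2-fold or more could not be told from no change in those 3 genes. In 3 against 3 libraries an exact permutation test cannot go below p = 0.1.

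The levels of the 10 genes spanned a wide range when set on a scale that allows genes to be compared, CPM per kilobase of annotated exon. Sema4d was highest, at 115 ± 4.42 CPM per kilobase (SD, n = 3) in WT. Pdgfb followed with 93.1 ± 6.23. Tgfb1 (35.2 ± 0.91) and Spns2 (34.3 ± 3.86) overlapped each other, and Sphk2 came next with 29.3 ± 0.416. The Sphk2 counts may include reads of genes on the opposite strand, as described below. A lower group held Lif (10.2 ± 4.76), Sphk1 (5.83 ± 2.33), Cthrc1 (5.28 ± 1.72) and Efnb2 (4.59 ± 0.943), in which each gene's libraries overlapped those of the next. Slit3 was lowest, at 0.378 ± 0.153 CPM per kilobase. The order was the same in Slc37a2 KO, where Sema4d was at 121 ± 8.59 and Slit3 at 0.291 ± 0.198 CPM per kilobase. With the longest transcript in place of all exons, Cthrc1 stood above Sphk1 in WT and the other positions did not move. Levels depended on that choice: Tgfb1 became 69 and Spns2 43.2 CPM per kilobase in WT, with no overlap between them, and Sema4d became 196.

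**Figure D1:**
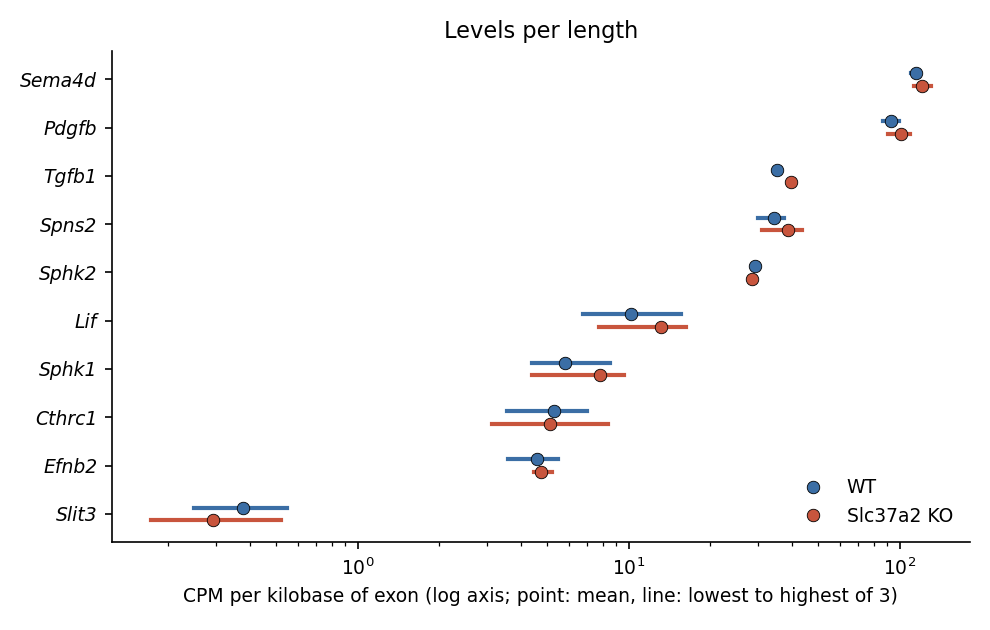
Level of each of the 10 genes in CPM per kilobase of exon on a log axis, with the mean as a point and the lowest to highest of 3 libraries as a line, for WT (blue) and Slc37a2 KO (red). Sema4d (115 in WT) and Pdgfb (93.1) lead, Slit3 (0.378) is lowest, and the genes keep the same order in both genotypes.

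The S1P genes comprise the 2 sphingosine kinases, Sphk1 and Sphk2, which make S1P, and Spns2, which carries it out of the cell. Sphk1 was at 20.9, 21.9 and 40.7 CPM in WT K090, L080 and L082, and at 45.8, 20.9 and 45.1 CPM in KO K089, L078 and L081. Each genotype thus held high and low libraries: WT L082 stood with KO K089 and KO L081, and KO L078 stood with WT K090 and WT L080. Means were 27.8 ± 11.1 CPM in WT and 37.3 ± 14.1 CPM in Slc37a2 KO (SD, n = 3), and the log2 fold change of 0.49 ± 0.42 (SE) had a 95% confidence interval of -0.53 to 1.52. Without WT L082 it was 0.93, without KO L078 it was 0.81, and without WT K090 it was 0.31. By the first letter of the animal number, whose meaning the headings do not give, the log2 difference in Sphk1 was 1.13 between the K libraries (1 against 1) and 0.08 between the L libraries (2 against 2).

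Sphk2, the second kinase, was at 121, 124 and 121 CPM in WT K090, L080 and L082 and at 119, 115 and 119 CPM in KO K089, L078 and L081. In CPM Sphk2 varied by 1.07-fold from the lowest to the highest library, and 0.586% of tested genes had a smaller spread within genotypes. On that scale the Slc37a2 KO libraries were all lower than those of WT. The genotypes overlapped once totals were scaled by TMM (edgeR's correction for library composition). The spread of Sphk2 was then wider, with an SD of 2.97 CPM in WT and 10.4 CPM in Slc37a2 KO. The fitted log2 fold change was 0.01 (95% confidence interval -0.17 to 0.20), or 0.08 without KO L078 and -0.01 without WT K090. Of the exon bases of Sphk2, 21.9% are shared with Dbp and Rpl18 on the opposite strand. Whether counting used strand is not given in the sources used here, so reads of these genes may not be told apart. Per kilobase, Sphk1 was at 0.151, 0.154 and 0.293 of the Sphk2 level in WT K090, L080 and L082 and at 0.334, 0.158 and 0.329 in KO K089, L078 and L081. By these counts, which may include reads of Dbp and Rpl18, Sphk2 was the more abundant kinase transcript in every library.

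Spns2, the exporter, was at 122, 144 and 153 CPM in WT K090, L080 and L082, and at 178, 127 and 168 CPM in KO K089, L078 and L081. KO K089 and KO L081 lay above all WT libraries, while KO L078 lay below WT L080. The log2 fold change was 0.24 ± 0.19 (SE) with a 95% confidence interval of -0.22 to 0.70. With 1 library left out it was highest without KO L078 (0.42) and lowest without KO K089 (0.13). Between the K libraries the log2 difference was 0.54 and between the L libraries -0.01. Of the other S1P genes listed, 13 were tested, 6 were above 0 and 7 below, with a median log2 fold change of -0.01 (0.14 without WT L082) and none called. Sgpl1, the lyase that degrades S1P, was the most abundant of them, at 719 ± 20.5 CPM in WT and 752 ± 47.4 CPM in Slc37a2 KO. Asah1, the ceramidase that supplies sphingosine, was at 398 ± 26.9 and 380 ± 27 CPM. The receptor S1pr1 was at 12.8 ± 2.55 and 9.02 ± 5.4 CPM, and the lipid phosphatase Plpp3 at 5.53 ± 0.178 and 4.1 ± 3.25 CPM, in WT and Slc37a2 KO.

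**Figure D2:**
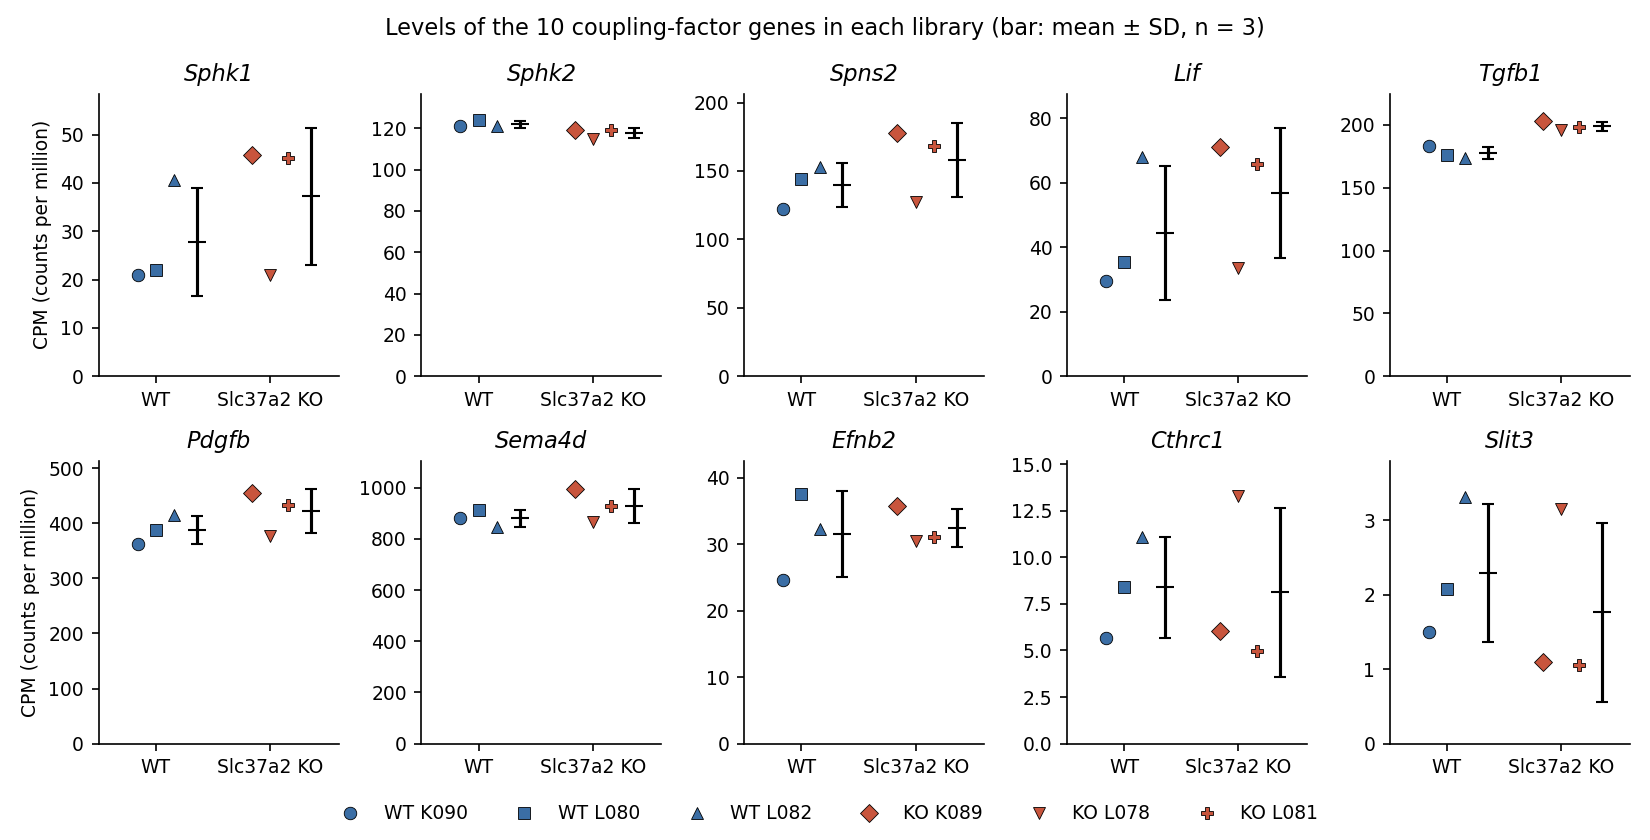
CPM of the 10 genes in each library, WT in blue and Slc37a2 KO in red, with a symbol for each animal and the mean ± SD (n = 3) beside them on axes that start at 0. Sphk1 and Lif are high in WT L082, KO K089 and KO L081, whereas Tgfb1 shows a gap between genotypes, from 183 to 196 CPM.

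Lif, a cytokine of the gp130 family that acts on cells of the osteoblast lineage, was at 29.5, 35.5 and 68.0 CPM in WT K090, L080 and L082, and at 71.1, 33.7 and 65.7 CPM in KO K089, L078 and L081. The same 3 libraries as for Sphk1 were high. Means were 44.4 ± 20.7 CPM in WT and 56.8 ± 20.2 CPM in Slc37a2 KO, with a log2 fold change of 0.43 ± 0.44 (SE) and a 95% confidence interval of -0.63 to 1.49. Without WT L082 the log2 fold change was 0.93, without KO L078 it was 0.73, and without WT K090 it was 0.19. Between the K libraries the log2 difference was 1.27, and between the L libraries -0.06. Of 11 tested gp130 ligands, receptors and signalling genes, 2 were above 0 and none was called (median log2 fold change -0.16, or -0.06 without KO K089). The shared receptor chain Il6st was at 107 ± 8.78 CPM in WT and 95.8 ± 16.6 CPM in Slc37a2 KO, and the kinase Jak1 at 228 ± 13.7 and 208 ± 25.5 CPM. The oncostatin M receptor Osmr was at 6.74 ± 2.19 and 4.76 ± 3.78 CPM, and the ligand Clcf1 at 4.67 ± 1.93 and 3.39 ± 1.85 CPM.

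Sphk1 and Lif were close to each other across libraries. Their ratio per kilobase stayed between 0.545 and 0.645 in all 6 libraries, with 0.584 ± 0.0539 in WT and 0.592 ± 0.03 in Slc37a2 KO (SD, n = 3). Likeness was measured over 6 libraries as the root-mean-square distance of log2 CPM after centring each gene on its own mean, and it is a description that rests on the same libraries, totals and genotype groups. By this measure Sphk1 was the 4th nearest of the tested genes to Lif, and Lif the 6th nearest to Sphk1, at a distance of 0.087. The 3 genes nearest to Sphk1 were 4833415N18Rik (0.054), Rhou (0.063), a small GTPase, and Tubb6 (0.063), a beta-tubulin. Those nearest to Lif were 4833415N18Rik (0.051), the transferrin receptor Tfrc (0.082) and the phosphatase Dusp8 (0.086). Tfrc was at 1291, 1615 and 2609 CPM in WT K090, L080 and L082 and at 3014, 1352 and 2680 CPM in KO K089, L078 and L081. Sphk2 stood 3220th in likeness to Sphk1, at a distance of 0.526.

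After Sphk1 and Lif were seen to have a like course across libraries, the start regions of the members were searched. RefSeq windows of the 250 bases before a transcript start (build GRCm38.p6) were at hand for 8 of the 10 genes, 15 windows in all, since several genes have more than 1 start. Both strands were searched for 6 sets of letters: TGACTCA (AP-1), TGACGTCA (CRE), CACGTG (E-box), TTTC and TTTC with any 2 bases between them (interferon-stimulated response element), TTCNNNGAA (STAT) and GGAAA (NFAT). GGAAA can lie within the interferon-response letters and overlap the STAT letters, and no other set contains another. The AP-1 letters, bound by Fos and Jun proteins, were found for 2 of the 8 genes, Sphk1 and Lif, against 5.16% of 27018 genes when any window counts. Counted over any window, E-box and STAT letters were each found for 1 gene, Sphk1, which has 5 windows (6.86% and 8.13% of all genes), CRE and interferon-response letters for 0 (1.77% and 3.46%), and GGAAA for 5 (58.8%). The 30 bases around each match are shown on the gene's strand, with the AP-1 letters in capitals. The Sphk1 stretch also holds STAT letters, left in lower case.
Sphk1, chr11:116531776-116531805: gagcgtgtcgcTGAGTCAccttctcggaag
Lif, chr11:4257329-4257358: ccagtcagctgTGACTCAggccatagtggc
The Sphk1 match reads in reverse orientation and lies in 2 of its 5 listed windows (listed 2 and 3), 50 and 124 bases before their transcript starts and within the span of the gene, while its first window held none. The Lif match begins 228 bases before the start. In first windows alone, Lif was the 1 member with a match and 4.43% of all windows held these letters. In first windows CRE, E-box, interferon-response and STAT letters were found for 0 of the 8 genes, against 1.62%, 6.05%, 3.04% and 7.18% of all windows, and GGAAA for 5 of the 8, against 55.6%. Such matches are descriptions of sequence, and binding was not measured. Sphk1 and Lif were picked by their likeness in these same libraries, and a link between the matches and that likeness was not tested.

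Tgfb1 encodes TGF-beta 1, the ligand stored in bone matrix. It was at 183, 176 and 174 CPM in WT K090, L080 and L082 and at 203, 196 and 198 CPM in KO K089, L078 and L081. Every Slc37a2 KO library was above every WT library, also after TMM scaling (exact two-sided permutation test p = 0.1, the smallest possible). In unscaled CPM, 1.15% of all tested genes were separated in this direction, and 4.62% in either direction, while Tgfb1 and Sphk2 were the 2 separated members. With TMM scaling 1.51% of all tested genes were separated in this direction, and the 1 separated member was Tgfb1. Means were 178 ± 4.59 and 199 ± 4.06 CPM (SD, n = 3), a ratio of 1.12. After TMM scaling they were 174 ± 2.29 and 203 ± 17.4 CPM, and the fitted fold change was 1.17 with a 95% confidence interval of 1.03 to 1.33. The unadjusted p was 0.0245 (0.712% of all tested genes had a value under 0.05), and the adjusted p was 0.969 (quasi-likelihood test of edgeR, adjusted by Benjamini-Hochberg). Tgfb1 was the 1 member with an unadjusted p under 0.05. The log2 difference was 0.16 between the K libraries and 0.17 between the L libraries, and the log2 fold change stayed between 0.19 and 0.29 when each library was left out in turn, the highest value being without KO L078.

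Among genes that store, activate or receive TGF-beta, 20 were tested and none was called, with 5 above 0 and a median log2 fold change of -0.14. Without KO L078 that median was -0.38, and without KO L081 it was 0.02, with 13 above 0. The type I receptor Tgfbr1 was at 1235, 1261 and 1598 CPM in WT K090, L080 and L082 and at 1879, 1324 and 1732 CPM in KO K089, L078 and L081, with a log2 fold change of 0.34 and a 95% confidence interval of -0.18 to 0.85. KO L078 was again among the lower libraries. Itgav, an integrin chain that can activate latent TGF-beta, was at 1443 ± 175 CPM in WT and 1507 ± 197 CPM in Slc37a2 KO. Its partner chain Itgb8 was at 0.569 ± 0.159 and 0.398 ± 0.291 CPM, and the binding protein Ltbp2 at 29.0 ± 9.98 and 21.9 ± 17.2 CPM.

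Pdgfb encodes the platelet-derived growth factor chain that recruits osteoblast precursors and vessel cells. It was at 362, 387 and 414 CPM in WT K090, L080 and L082 and at 454, 377 and 433 CPM in KO K089, L078 and L081. KO K089 and KO L081 lay above the WT libraries and KO L078 among them. The log2 fold change was 0.18 ± 0.14 (SE) with a 95% confidence interval of -0.15 to 0.51. With 1 library left out it was highest without KO L078 (0.31) and lowest without KO K089 (0.11). The log2 difference was 0.33 between the K libraries and 0.02 between the L libraries. Of 7 tested genes for other PDGF ligands, processing enzymes and receptors, 1 was above 0, the median was -0.39 and none was called. Without KO L078 the median was -0.93, and without WT L082 it was -0.09. Pdgfa was at 37.7 ± 3.5 CPM in WT and 36.9 ± 7.99 CPM in Slc37a2 KO, and the processing enzyme Pcsk7 at 61.1 ± 7.6 and 53.9 ± 5.84 CPM. The ligand Pdgfd and the processing enzyme Pcsk6 were under 1 CPM on average in both genotypes.

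Sema4d encodes semaphorin 4D, the osteoclast factor that restrains osteoblasts through plexin B1. At 883, 913 and 846 CPM in WT K090, L080 and L082 and 996, 864 and 929 CPM in KO K089, L078 and L081, it varied by 1.18-fold over the 6 libraries. The highest 2 libraries were Slc37a2 KO, but KO L078 lay below 2 of the WT libraries. Sema4d had a log2 fold change of 0.14 ± 0.12 (SE), with a 95% confidence interval of -0.14 to 0.42. With 1 library left out it was highest without KO L078 (0.24) and lowest without KO K089 (0.07). Between the K libraries the log2 difference was 0.17 and between the L libraries 0.03. The receptor Plxnb1 was low, at 2.02 ± 0.622 CPM in WT and 1.4 ± 0.87 CPM in Slc37a2 KO. Of 19 tested semaphorins, plexins and related genes, 4 were above 0, the median was -0.14 (-0.36 without KO L078, -0.02 without KO K089) and none was called. The most abundant were Nrp2, at 1902 ± 114 and 1826 ± 64.8 CPM, and Plxnd1, at 1277 ± 70.1 and 1285 ± 7.59 CPM. Plxnc1 was at 25.8, 23.6 and 6.02 CPM in WT K090, L080 and L082 and at 4.71, 23.4 and 6.34 CPM in KO K089, L078 and L081, so that it was low in the libraries where Sphk1 and Lif were high.

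Efnb2 encodes ephrin B2, a membrane ligand that osteoclasts present to EphB4 on osteoblasts. It was at 24.6, 37.5 and 32.3 CPM in WT K090, L080 and L082 and at 35.7, 30.5 and 31.1 CPM in KO K089, L078 and L081. The Slc37a2 KO libraries lay within the range of WT. A log2 fold change of 0.11 ± 0.18 (SE) was fitted, with a 95% confidence interval of -0.33 to 0.54, and it was -0.05 without WT K090 and 0.20 without KO L078. Between the K libraries the log2 difference was 0.53 and between the L libraries -0.18. Of 12 tested ephrins and Eph receptors, 2 were above 0, the median was -0.14 and none was called. This median moved to -0.53 without KO L078 and to 0.05 without WT L082, when 7 were above 0. Efnb1 was at 30.9 ± 6.1 CPM in WT and 28.5 ± 9.88 CPM in Slc37a2 KO, and Efna2 at 14.5 ± 2.86 and 13 ± 4.39 CPM. The receptor Epha2 was at 7.39 ± 3.12 and 5.56 ± 1.43 CPM. Efna4, at 0.638 ± 0.198 and 0.283 ± 0.285 CPM, had the lowest log2 fold change of the list, -1.06 with a 95% confidence interval of -2.62 to 0.50.

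Cthrc1, a secreted protein linked to bone formation, was at 5.66, 8.42 and 11.1 CPM in WT K090, L080 and L082 and at 6.05, 13.3 and 4.99 CPM in KO K089, L078 and L081. KO L078 was highest and KO L081 lowest, so the Slc37a2 KO libraries enclosed those of WT. The log2 fold change was -0.02 ± 0.40 (SE), with a 95% confidence interval of -1.0 to 0.95, and ranged from -0.50 (without KO L078) to 0.28 (without WT L082). Slit3, a secreted ligand of ROBO receptors, rested on 31 to 134 counts per library, and was at 1.5, 2.07 and 3.31 CPM in WT K090, L080 and L082 and at 1.09, 3.15 and 1.05 CPM in KO K089, L078 and L081. WT L082 and KO L078 were high in Slit3. Its log2 fold change of -0.35 ± 0.50 (SE) had a 95% confidence interval of -1.56 to 0.86 and ranged from -0.99 (without KO L078) to 0.06 (without WT L082). The within-letter log2 differences were 0.10 (K) and -0.09 (L) for Cthrc1 and -0.46 (K) and -0.36 (L) for Slit3.

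The genes nearest to Slit3 across the 6 libraries were Timp1 (distance 0.072), an inhibitor of matrix metalloproteinases, Efna5 (0.098) and the collagen gene Col5a2 (0.098). Col5a2 was at 135, 215 and 293 CPM in WT K090, L080 and L082 and at 103, 306 and 88.7 CPM in KO K089, L078 and L081. The osteoblast and stromal marker list took a like course. Its median deviation from each gene's own mean, on the log2 scale, was -0.29, 0.27 and 0.67 in WT K090, L080 and L082 and -0.63, 0.73 and -0.77 in KO K089, L078 and L081. Slit3 deviated by -0.28, 0.18 and 0.85 in WT K090, L080 and L082 and by -0.73, 0.78 and -0.80 in KO K089, L078 and L081, and Cthrc1 by -0.45, 0.12 and 0.53 and by -0.35, 0.78 and -0.63. The part of stromal cells in the Slit3 and Cthrc1 levels was not tested. In bulk libraries, fewer cells of a type and less RNA per cell cannot be told apart. Of 6 tested SLIT and ROBO genes, 2 were above 0 and none was called (median log2 fold change -0.08, or -0.40 without KO L078 and 0.03 without WT L082). The ROBO adaptors Srgap3 (190 ± 20.1 CPM in WT and 200 ± 18.6 CPM in Slc37a2 KO) and Srgap2 (128 ± 21 and 112 ± 19.4 CPM) were the most abundant, while Slit2 was at 4.57 ± 1.9 and 3.14 ± 2.5 CPM and Srgap1 at 6.44 ± 2.06 and 8.22 ± 1.17 CPM.

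**Figure D3:**
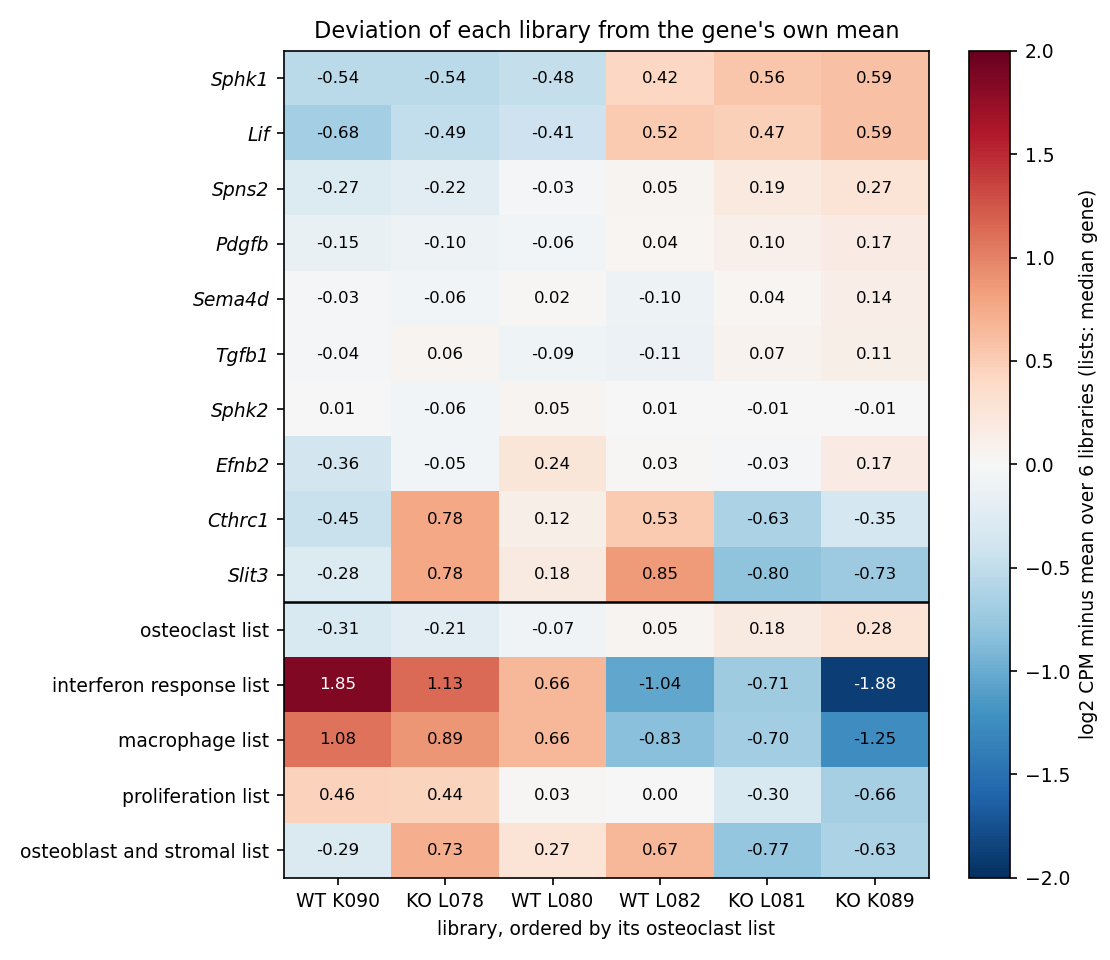
Log2 CPM of each library minus the mean over 6 libraries, for the 10 genes and, below the line, for the median gene of 5 marker lists, with libraries ordered by the osteoclast list. Sphk1, Spns2 and Pdgfb increase from left to right with the osteoclast list while the macrophage and interferon lists are high in the 3 libraries on the left and low in the 3 on the right, and Cthrc1 and Slit3 share the course of the osteoblast and stromal list.

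The library order that Sphk1, Spns2 and Pdgfb shared was also that of the median of the osteoclast list. Not every gene of the list followed it: Ctsk did, and Calcr did not. Calcr was at 128, 153 and 88.1 CPM in WT K090, L080 and L082 and at 124, 129 and 128 CPM in KO K089, L078 and L081. The median deviation of the osteoclast list was -0.31, -0.07 and 0.05 in WT K090, L080 and L082 and 0.28, -0.21 and 0.18 in KO K089, L078 and L081. From lowest to highest this gives WT K090, KO L078, WT L080, WT L082, KO L081 and KO K089, an order also seen in Spns2 and Pdgfb, and in Sphk1 apart from WT K090 and KO L078, which were level at 20.9 CPM. The steps were of unequal size: from the lowest to the highest library Sphk1 differed by 2.19-fold, Lif by 2.41-fold, Spns2 by 1.45-fold and Pdgfb by 1.25-fold. The median of the macrophage list ran the other way. It was 1.08, 0.66 and -0.83 in WT K090, L080 and L082 and -1.25, 0.89 and -0.70 in KO K089, L078 and L081. Here too, not every gene followed. Cd68 had the order of the osteoclast list, at 1512, 1621 and 1849 CPM in WT K090, L080 and L082. In KO K089, L078 and L081 it was at 2096, 1580 and 1945 CPM. Csf1r varied little, from 1826 CPM in KO L078 to 1951 CPM in KO K089. The list of interferon-response genes (12 genes) had deviations of 1.85, 0.66 and -1.04 in WT K090, L080 and L082 and -1.88, 1.13 and -0.71 in KO K089, L078 and L081. Between genotypes all 15 osteoclast markers had a log2 fold change above 0 (median 0.27) and 9 of 12 macrophage markers had one below 0 (median -0.44), as did all 12 interferon-response genes (median -0.92), all 13 tested stromal markers (median -0.21) and all 10 proliferation genes (median -0.24), but none was called. These medians moved with single libraries: the macrophage and interferon medians were -0.02 and -0.08 without WT K090, and the stromal median was 0.03 without WT L082. Without KO L078 they were -1.39, -1.99 and -0.85, and that of the osteoclast list was 0.46. Without KO K089 the osteoclast median was 0.13 and the proliferation median -0.04. The part of these marker differences in the values of Sphk1, Lif, Spns2 and Pdgfb was not tested. Over all tested genes, the first principal component, the main axis of difference among libraries, held 60.4% of the variance. On it WT K090, L080 and L082 stood at -26.4, -25.1 and 8.0 and KO K089, L078 and L081 at 46.0, -39.0 and 36.4. A like split of libraries thus ran through the whole table and was not particular to these genes.

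**Figure D4:**
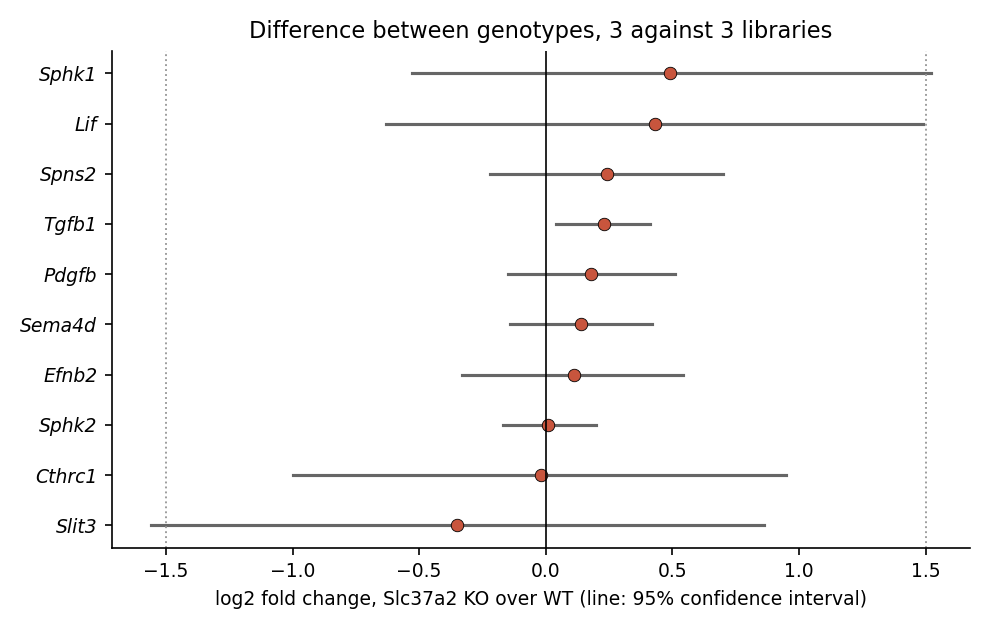
Log2 fold change of each of the 10 genes, Slc37a2 KO over WT, with its 95% confidence interval from edgeR's quasi-likelihood fit to 3 against 3 libraries, and dotted lines at -1.5 and 1.5, the fold limit used in the study. The interval of Tgfb1, 0.04 to 0.41, is narrow and above 0, and those of Slit3, Sphk1 and Lif are the widest.

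The spread within genotypes differed between genes and depended on the scaling. For log2 CPM without TMM scaling, the SD within genotypes was 0.03 for Tgfb1, 0.02 for Sphk2 and 0.08 for Sema4d. The median over all tested genes was 0.18. It was 0.59 for Sphk1, 0.61 for Lif, 0.63 for Cthrc1 and 0.75 for Slit3, which put these 4 genes at the 86.6th to 91.4th percentile. With TMM scaling, which the test used, the SD in Slc37a2 KO rose from 4.06 to 17.4 CPM for Tgfb1. For Sphk2 it rose from 2.28 to 10.4 CPM, so in Slc37a2 KO their small spread held for unscaled CPM only. In WT the SD of Tgfb1 was 4.59 CPM unscaled and 2.29 CPM with TMM scaling. That of Sphk2 in WT was 1.73 and 2.97 CPM.

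The last list held further factors proposed to link resorption to formation. Of 11 tested genes 3 were above 0, the median log2 fold change was -0.20 and none was called. It was -0.51 without KO L078 and 0.01 without WT L082. Creg1, a secreted lysosomal glycoprotein, was at 316 ± 16.8 CPM in WT and 306 ± 15.9 CPM in Slc37a2 KO, and Tnfrsf11a, the RANKL receptor, at 255 ± 2.94 and 258 ± 11.3 CPM. Igf1 was at 99.2, 87.3 and 22.1 CPM in WT K090, L080 and L082 and at 13.4, 87.9 and 16.7 CPM in KO K089, L078 and L081, low where Sphk1 and Lif were high. Bmp2 was at 2.69 ± 0.342 and 2.0 ± 0.478 CPM. Wnt10b was below 1 CPM on average, Bmp6 and Ctf1 had 17 and 15 counts over all libraries and were not tested, and Wnt16 was not in the table used here. Over the 8 lists together, which hold 123 genes, 99 were tested, 25 were above 0 and the median log2 fold change was -0.14. Without KO L078 the median was -0.36, and without KO L081 it was -0.02, with 46 above 0. None was called, and 1 of the 99 (1.01%) had an unadjusted p under 0.05, against 0.712% of all tested genes. That gene, Sema4b, was at 11.5, 12.0 and 9.30 CPM in WT K090, L080 and L082 and at 8.13, 9.12 and 7.62 CPM in KO K089, L078 and L081. It was named after its values were seen. Its log2 fold change was -0.35 and its adjusted p 0.969 (quasi-likelihood test of edgeR, adjusted by Benjamini-Hochberg).

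**Figure D5:**
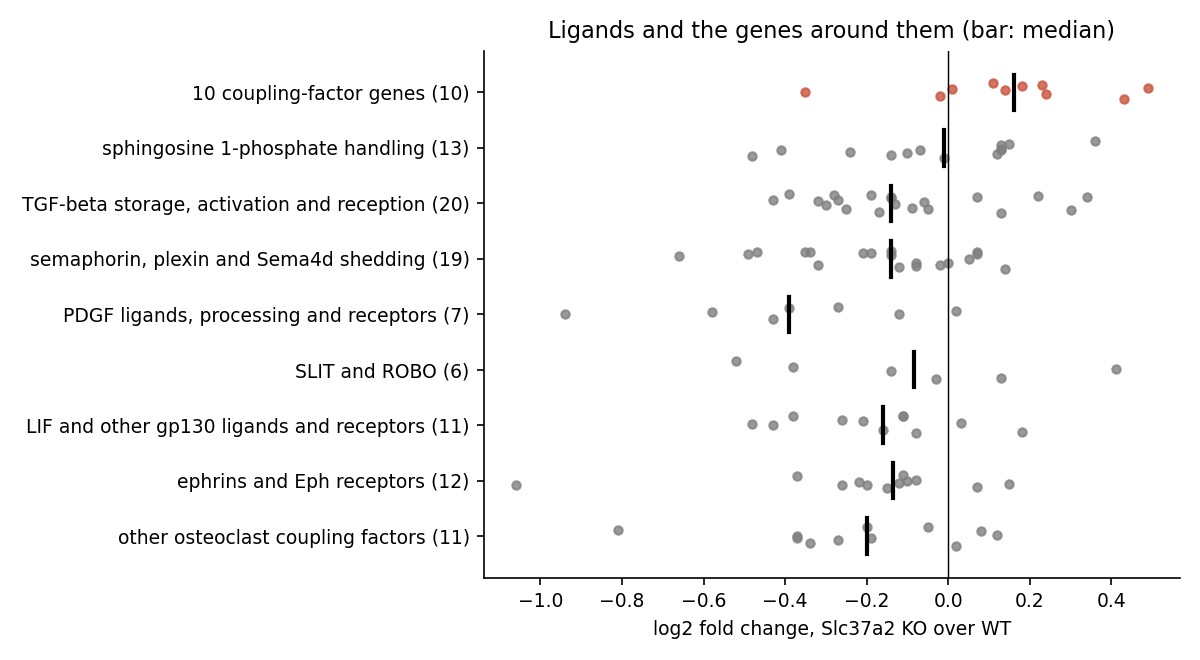
Log2 fold change, Slc37a2 KO over WT, of the 10 genes (red) and of the tested genes of 8 lists around them (grey), with the number tested in brackets and a black bar at each median. The 10 genes have a median of 0.16 and the lists medians between -0.39 and -0.01, several of which turn sign when WT L082 or KO L081 is left out, and none of these genes passed the test.

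By position (GRCm38, GENCODE M21), 4 of the 10 genes lie on chromosome 11: Lif (chr11:4257557-4272514, plus strand), Slit3 (chr11:35121224-35708507, plus), Spns2 (chr11:72451638-72489904, minus) and Sphk1 (chr11:116530925-116536674, plus). Tgfb1 (chr7:25687002-25705077, plus) and Sphk2 (chr7:45709467-45718002, minus) lie on chromosome 7, and Cthrc1 (chr15:39076932-39087121, plus) and Pdgfb (chr15:79995874-80014977, minus) on chromosome 15. Sema4d (chr13:51685529-51793747, minus) and Efnb2 (chr8:8617434-8661242, minus) are alone on theirs. Counts of a gene cover its annotated exons. Exons of Sphk1 share 4.02% of their bases with Gm29292 and those of Spns2 share 3.21% with Mybbp1a, each on the opposite strand.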

How the data were processed

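RNAseq of 6 libraries (3 WT, 3 Slc37a2 KO) was analysed from the table of 22601 genes. The authors deposited whole-number counts per library, not normalized. Further deposited columns, from the authors' own comparison, give log2 values (fold change and mean CPM), a likelihood ratio score, and a p-value with its FDR, and none was used. The submitters' processing notes name bcl2fastq 2.20.0.422, edgeR 3.30.3 and mm10, while aligner, counter and annotation were not given in the sources used here. Columns were assigned to genotypes by heading, and 0 columns belonged to other samples. The closest pair of libraries (KO K089 and KO L081) still differed beyond counting noise (chi-square per degree of freedom 6.72).

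Testing used edgeR 4.0.16 in R 4.3.3. Genes were filtered by filterByExpr at its defaults, totals scaled by TMM, and genotype fitted by glmQLFit and tested by glmQLFTest, with p-values of 13483 genes adjusted by Benjamini-Hochberg. A call needed an adjusted p below 0.05 and, by a second rule, an absolute log2 fold change over 1.5. The biological coefficient of variation was 20.8%. Log2 CPM used a prior count of 0.5. Exon lengths and positions came from GENCODE M21 (GRCm38), in which 18796 (83.2%) of the symbols matched, and start windows from RefSeq. The fit was tested on simulated data. Alternatives were DESeq2 size factors, upper quartile scaling, 2 other filters, edgeR's likelihood ratio test, DESeq2 1.42.0, a block for the heading letter, and each library left out in turn.

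The members and lists were chosen with earlier results of these data known. The genes named are the 10 members, Slc37a2, the 2 most changed and 2 most abundant tested genes of each list, and the 3 genes nearest in pattern to each of the 3 most variable members. Sema4b was added after its values were seen. Marker genes and the genes of overlapping exons are named beside the values they touch, and further genes of the last list (Wnt10b, Bmp6, Ctf1, Wnt16) by their levels.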

Additional observations from a re-analysis of the deposited data

How the results depend on the processing

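None of the 10 members was called in any alternative run. The number of genes called, 1 in the main analysis, was 2 under either call rule without the filter, with edgeR's likelihood ratio test and with DESeq2's Wald test. With other scalings, filters, tests and the heading-letter block, log2 fold changes kept their sign in 9 of the 10 members; Cthrc1 went from -0.02 to 0.0031 with the block. Leaving out each library in turn gave 0.31 to 0.93 for Sphk1, 0.19 to 0.93 for Lif, 0.13 to 0.42 for Spns2, 0.19 to 0.29 for Tgfb1, 0.07 to 0.24 for Sema4d and 0.11 to 0.31 for Pdgfb. The sign turned in Sphk2 (-0.01 to 0.08), Efnb2 (-0.05 to 0.24), Cthrc1 (-0.50 to 0.28) and Slit3 (-0.99 to 0.06). Sphk2 turned without WT K090 (-0.01) and without KO K089 (-0.01), Efnb2 without WT K090 (-0.05), Cthrc1 without WT L082 (0.28), KO K089 (0.13) or KO L081 (0.23), and Slit3 without WT L082 (0.06). The cause was not tested. No paired analysis was possible because the columns carry no replicate number. Slit3 rests on the fewest counts, 31 to 134 per library, and levels per kilobase of all 10 genes change with the transcript length used.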
